A study of Mus musculus with 6 samples.

Results

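The enzymes that write, erase and support DNA methylation were followed in 10 genes: the dioxygenases Tet1, Tet2 and Tet3, the methyltransferases Dnmt1, Dnmt3a and Dnmt3b, the maintenance factor Uhrf1, the repair glycosylase Tdg, and the isocitrate dehydrogenases Idh1 and Idh2. They were chosen by name, and each had 1 probe set among the 25206 on the array, of which 23185 carry a gene name. The cells were macrophages that entered the mouse peritoneal cavity after thioglycollate, an irritant. They were collected 4 days after the injection from C57BL/6J mice, kept on culture plates in RPMI medium with serum, given no further treatment, and lysed for total RNA 10 h later. The groups were Tet2-/- mice and their wild-type littermates, with 3 arrays each, titled replicates 4, 5 and 6. The mice's age and sex, the part of Tet2 that was deleted and whether each replicate came from its own animal were not stated in the labels. P-values here therefore reflect only the spread among these samples, which may be technical.

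DNA methylation is set on cytosines that precede a guanine (CpG) by Dnmt3a and Dnmt3b. Dnmt1, guided by Uhrf1 to hemimethylated DNA behind the replication fork, copies it to the new strand. TET enzymes oxidise the methyl group in steps, and Tdg cuts out the most oxidised forms so that repair restores an unmodified cytosine. TET enzymes need iron and 2-oxoglutarate, a metabolite that Idh1 in the cytosol and Idh2 in mitochondria produce from isocitrate. Tet2 is the family member best known from myeloid cells, where its loss is linked to clonal blood cell growth and to inflammatory macrophages. The comparison asks how the transcripts of these enzymes stand when Tet2 is disrupted.

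Genotype labels conflicted for 4 of the 6 samples, in which the title named one genotype and the genotype characteristic the other. Groups were taken from the titles, so "Tet2-/-" below means a library titled so. Values by the characteristic are given beside many results, but not beside every one whose sign it turns. The characteristic sets wild-type replicates 5 and 6 and Tet2-/- replicate 5 against wild-type replicate 4 and Tet2-/- replicates 4 and 6. The groupings are thus opposed in part, so a difference by title tends to turn sign by the characteristic. Such a turn is no independent check. Deposited values are log2 RMA levels, with array medians from 2.77 to 2.93. Tet2-/- replicate 6 stood apart, with the highest median, the narrowest interquartile range (2.99, against 3.16 to 3.33) and the lowest mean correlation with the other arrays (0.982, against 0.986 to 0.989). Macrophage markers were present in all arrays: Cd68, a lysosomal glycoprotein, lay between 10.4 and 11.2, and Csf1r, the receptor for macrophage colony-stimulating factor, between 8.61 and 9.87. Levels of different probe sets depend on their probes as well as on RNA, so no gene's level is ranked against another's. Only its position within the values of an array is given.

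Promoter sequence was examined because CpGs are the substrate of these enzymes. The other reason was that 3 of the 10 genes separated the groups by title, against 7.41% of all probe sets. All 10 had an entry in the RefSeq promoter table (build GRCm38.p6). In the 250 bases before the start site, taking for each gene the window with the most CpGs, the 10 genes held 15 to 51 CpGs with a median of 21.5. The median over 17452 genes of the array was 11. Tet2 held 51, more than 99.9% of these genes, and Dnmt3a 40, more than 98.0%. Tet3 held 17 and Tet1 held 15. The 120 bases just before the start site (for Dnmt3a, its most upstream listed start) are shown with CpGs in capitals. They are given for the deleted gene and for the 2 genes that were lower in all Tet2-/- arrays (4.07% of all probe sets). The stretch holds 25 CpGs in Tet2 (chr3:133544391-133544510, - strand), 10 in Tet3 (chr6:83441679-83441798, - strand) and 16 in Dnmt3a (chr12:3806860-3806979, + strand).
Tet2: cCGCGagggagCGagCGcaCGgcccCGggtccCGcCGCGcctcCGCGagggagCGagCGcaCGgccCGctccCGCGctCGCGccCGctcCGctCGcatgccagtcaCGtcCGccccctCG
Tet3: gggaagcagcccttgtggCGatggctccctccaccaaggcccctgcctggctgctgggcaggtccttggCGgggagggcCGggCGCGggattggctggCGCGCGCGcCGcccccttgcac
Dnmt3a: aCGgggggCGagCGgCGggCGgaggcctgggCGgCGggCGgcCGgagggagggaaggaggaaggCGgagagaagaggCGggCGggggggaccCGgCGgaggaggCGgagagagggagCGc

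The replication-coupled pair Dnmt1 and Uhrf1 shared a letter match that the other 8 did not have. The E2F-type motifs TTTCGCGC and TTTGGCGC were searched on both strands of the same 250-base windows. One or both were present in 0.95% of the 17452 genes, in 3 of 19 cell cycle genes with a promoter entry, and in 2 of the 10 enzymes. Uhrf1 (chr17:56304098-56304155, + strand) carried TTTCGCGC 185 bases before one of its 2 listed starts, and Dnmt1 (chr9:20952815-20952872, - strand) carried it on the opposite strand 219 bases before one of its 3 listed starts. TTTCGCGC alone was present in 0.37% of the 17452 genes. Neither share was matched for CpG content, and the motif itself holds CpGs. The windows of Dnmt1 and Uhrf1 held 26 and 30 CpGs, against a median of 11 over these genes. A match describes the letters only. The motif is in capitals, with the bases around it.
Uhrf1: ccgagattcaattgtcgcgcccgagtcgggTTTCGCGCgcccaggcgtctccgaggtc
Dnmt1: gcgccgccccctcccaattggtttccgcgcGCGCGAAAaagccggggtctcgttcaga

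None of the 10 genes passed the test between genotypes, and the data bound each difference rather than show that there was none. By limma's moderated test with Benjamini-Hochberg adjustment over all 25206 probe sets, 0 of 10 passed an adjusted p of 0.05, against a background of 0% of all probe sets. The adjusted p was 0.998 for every one of them. The 10 differences (Tet2-/- minus wild-type) ran from -0.42 to 0.22, 6 below 0 and 4 above, with a median of -0.03. The median over all probe sets was 0. Every gene's 95% confidence interval reached between 0.30 and 0.44 log2 units to each side of its value. At an unadjusted p under 0.05 there were 2, Dnmt3a and Tet3, both lower, against a background of 1.9% of all probe sets lower, 1.71% higher and 3.61% in either direction (910 probe sets). The 3 arrays of each genotype did not overlap for 3 genes: Tet3 and Dnmt3a lay lower in Tet2-/- and Uhrf1 higher. The background for such separation was 7.41% of all probe sets, 4.07% lower and 3.33% higher. By the genotype characteristic, 0 of 10 separated the groups (5.48% of all probe sets) and 0 had an unadjusted p under 0.05. For the 3 genes separated by title this was fixed in advance. Each group by the characteristic mixes both titles, so no gene can separate both groupings. Without Tet2-/- replicate 6, the same 3 genes separated the groups (25.7% of all probe sets with fewer arrays). Groups that are apart cannot come to overlap when an array is left out, so that these 3 stayed was fixed in advance. Without that array, Dnmt3a alone had an unadjusted p under 0.05 (9.87% of all probe sets). Leaving out any other array also took 1 or both of Dnmt3a and Tet3 above that p, both of them without wild-type replicate 5.

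**Figure D1:**
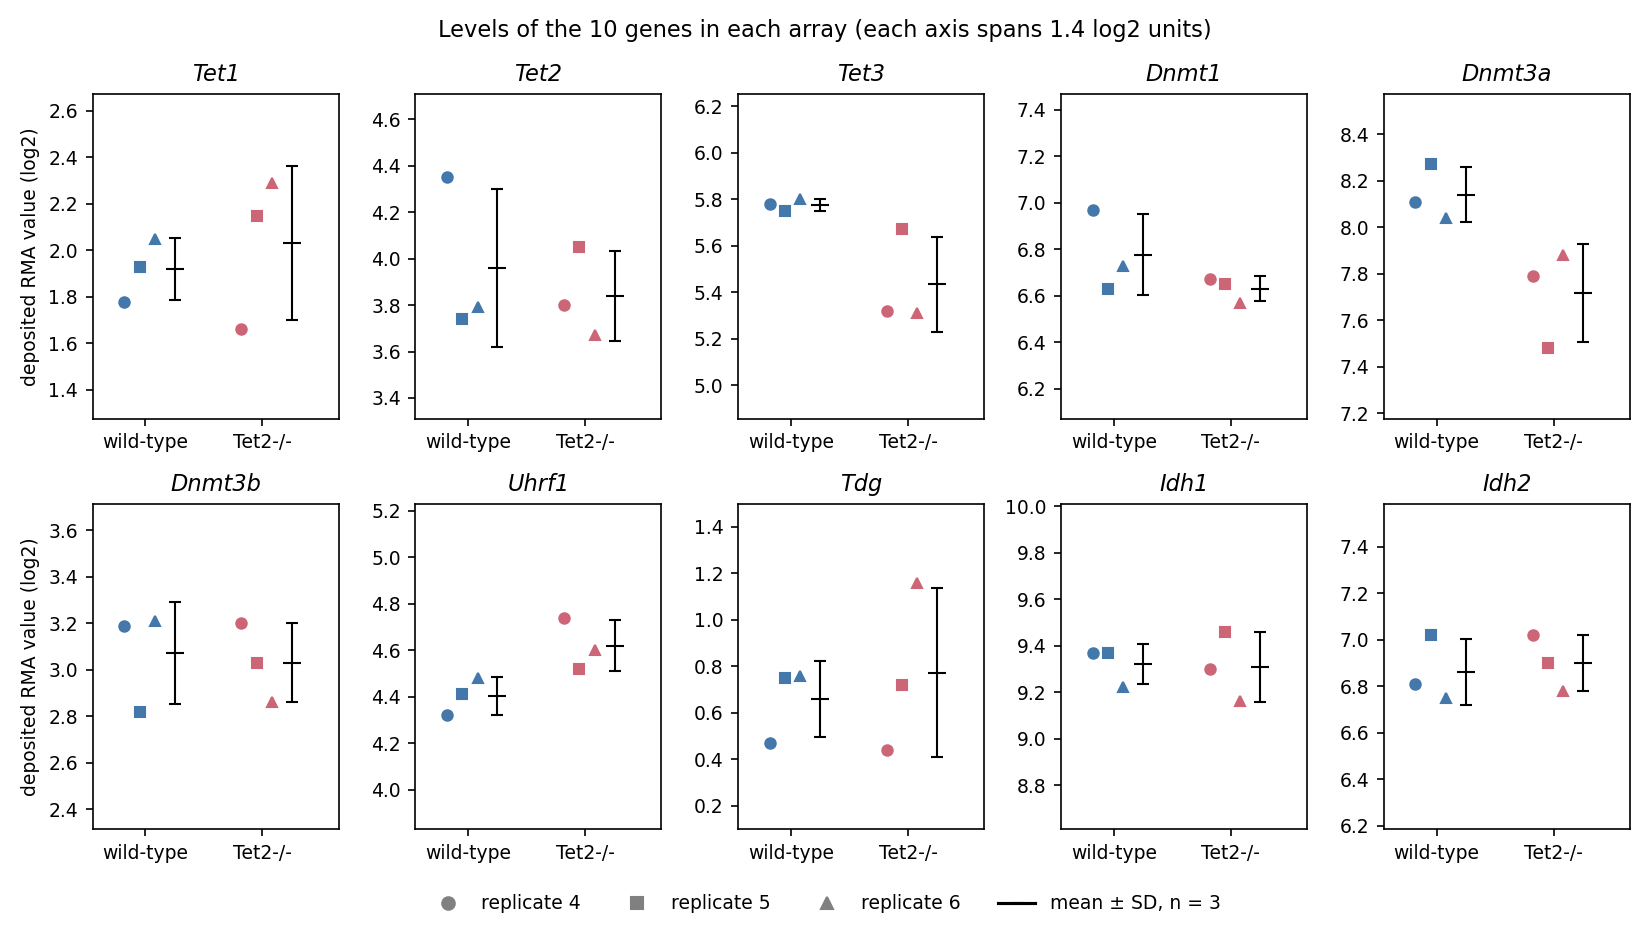
Deposited log2 RMA level (vertical axis) of each of the 10 genes in the 3 wild-type (blue) and 3 Tet2-/- (red) arrays, grouped by title. Marker shapes give the replicate number, and the black bar gives mean ± SD with n = 3. Tet3 and Dnmt3a are lower and Uhrf1 higher in all 3 Tet2-/- arrays, whereas the other 7 genes overlap.

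Among the TET dioxygenases, the Tet2 probe set gave levels in the Tet2-/- libraries that overlapped wild-type. Its log2 level was 4.35, 3.74 and 3.79 in wild-type replicates 4, 5 and 6, and 3.80, 4.05 and 3.67 in Tet2-/- replicates 4, 5 and 6. Wild-type replicate 4 was the highest of the 6, and the other 5 intermingled. The means were 3.96 ± 0.339 and 3.84 ± 0.193 (SD, n = 3 each), a difference of -0.12 with a 95% confidence interval from -0.56 to 0.32, or 0.681-fold to 1.24-fold. Against the wild-type mean the Tet2-/- arrays stood at -0.16, 0.09 and -0.29, so they did not share a direction. Without wild-type replicate 4 the difference was 0.075, and by the characteristic it was -0.08. The labels do not say where the probes of this set lie relative to the deletion, and the level is no check of either set of labels.

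Tet3 was the TET gene with the clearest separation. This family member has its own DNA-binding CXXC domain in some isoforms. It lay at 5.78, 5.75 and 5.80 in wild-type and at 5.32, 5.67 and 5.31 in Tet2-/- replicates 4, 5 and 6. The wild-type arrays lay within 0.05 of each other, Tet2-/- replicate 5 lay just under them, and replicates 4 and 6 lay well below. The means were 5.78 ± 0.0252 and 5.43 ± 0.205 (SD, n = 3 each), a difference of -0.34 (standard error 0.143), or 0.788-fold. It did not pass (limma adjusted p = 0.998), and its unadjusted p of 0.0403 ranked 721 among all probe sets. An absolute difference this large was seen for 6.14% of probe sets. Grouped by the characteristic, the direction turned and the difference was 0.27.

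Tet1, known best from embryonic stem cells and germ cells, lay low on the array's scale, at about percentile 30.4 of the values of an array. It measured 1.78, 1.93 and 2.05 in wild-type and 1.66, 2.15 and 2.29 in Tet2-/- replicates 4, 5 and 6. The Tet2-/- arrays held both the lowest and the highest value. The difference was 0.11 (95% confidence interval -0.30 to 0.53), and without Tet2-/- replicate 6 it was -0.015.

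Dnmt3a had the largest difference of the 10. It encodes the de novo methyltransferase that, like Tet2, is often mutated in clonal blood cell growth. Its log2 level was 8.11, 8.27 and 8.04 in wild-type and 7.79, 7.48 and 7.88 in Tet2-/- replicates 4, 5 and 6. All Tet2-/- arrays lay below all wild-type arrays, and replicate 5 was the lowest. The means were 8.14 ± 0.118 and 7.72 ± 0.210 (SD, n = 3 each), a difference of -0.42 (standard error 0.151) with a 95% confidence interval from -0.77 to -0.08. That is 0.746-fold, with an interval from 0.588 to 0.945. It did not pass over all probe sets (limma adjusted p = 0.998). Its unadjusted p of 0.0208 ranked 388, and 3.26% of probe sets had an absolute difference as large. By the characteristic the difference was 0.0033, with an interval from -0.47 to 0.48.

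Dnmt3b, the other de novo enzyme, lay near the middle of the array's values (percentile 53.5). It measured 3.19, 2.82 and 3.21 in wild-type and 3.20, 3.03 and 2.86 in Tet2-/- replicates 4, 5 and 6. The groups overlapped fully. The difference was -0.04 (95% confidence interval -0.41 to 0.32), and its sign turned when wild-type replicate 4, wild-type replicate 6 or Tet2-/- replicate 6 was left out, reaching 0.04.

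Dnmt1, the maintenance methyltransferase, lay at 6.97, 6.63 and 6.73 in wild-type and at 6.67, 6.65 and 6.57 in Tet2-/- replicates 4, 5 and 6. The Tet2-/- arrays were tight (6.63 ± 0.0529, SD, n = 3) and overlapped the lowest wild-type array. Wild-type had a mean of 6.78 ± 0.175 (SD, n = 3). The difference was -0.15 (95% confidence interval -0.46 to 0.17) and -0.05 without wild-type replicate 4.

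Uhrf1, which recruits Dnmt1 to replicated DNA, differed in the other direction. It lay at 4.32, 4.41 and 4.48 in wild-type and at 4.74, 4.52 and 4.60 in Tet2-/- replicates 4, 5 and 6. All Tet2-/- arrays were above all wild-type arrays, by as little as 0.04 between the nearest. The means were 4.40 ± 0.0802 and 4.62 ± 0.111 (SD, n = 3 each), a difference of 0.22 (standard error 0.130) with a 95% confidence interval from -0.08 to 0.51. It did not pass (limma adjusted p = 0.998), and 19.0% of probe sets differed as much. By the characteristic it was -0.08, and after a further quantile normalization the groups overlapped.

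**Figure D2:**
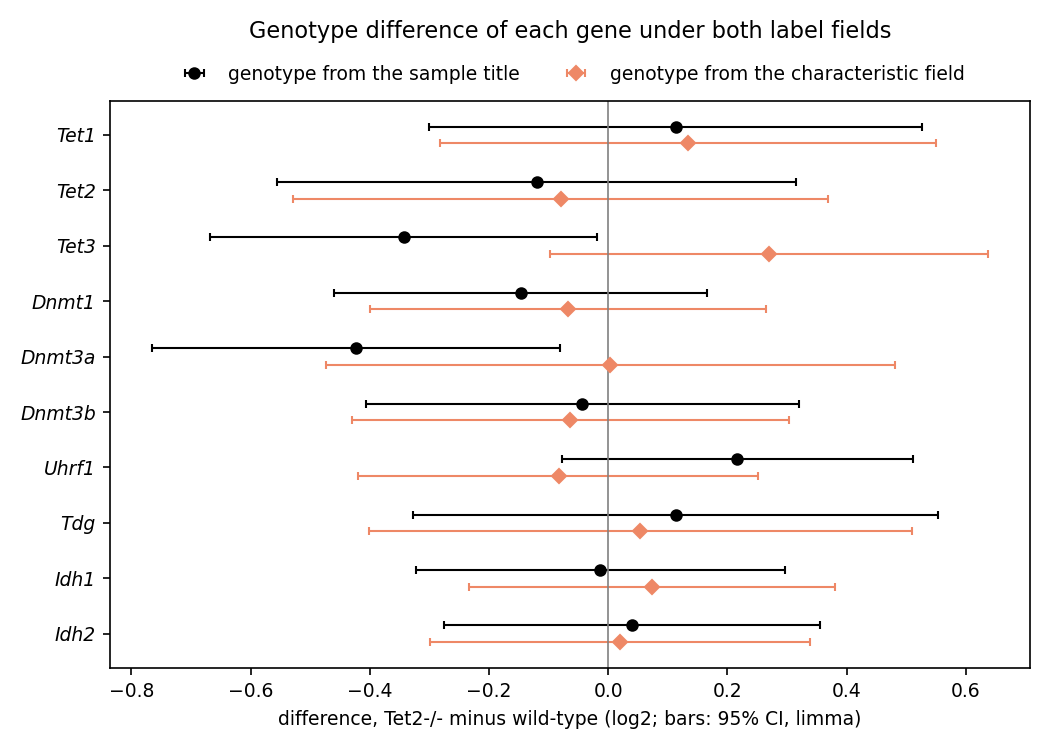
Difference between Tet2-/- and wild-type (horizontal axis, log2) for each of the 10 genes, with 95% confidence intervals from limma. Black circles use the genotype in the sample title and orange diamonds the genotype characteristic. Only Tet3 and Dnmt3a have a black interval that leaves out 0, and their orange values are 0.27 and 0.0033.

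Tdg, the glycosylase downstream of TET oxidation, had values at the bottom of the scale, at about percentile 1.23 of an array's values. It measured 0.47, 0.75 and 0.76 in wild-type and 0.44, 0.72 and 1.16 in Tet2-/- replicates 4, 5 and 6. Only Tet2-/- replicate 6, the array that stood apart, lay clear of the rest. The difference was 0.11 (95% confidence interval -0.33 to 0.55) and -0.08 without that array. RMA compresses differences at this end of the scale, so a difference in Tdg transcript may be understated.

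The 2 isocitrate dehydrogenases, by contrast, lay high in the arrays (percentiles 98.9 for Idh1 and 91.7 for Idh2) and were the steadiest of the 10. Idh1 measured 9.37, 9.37 and 9.22 in wild-type and 9.30, 9.46 and 9.16 in Tet2-/- replicates 4, 5 and 6, a spread of 0.30 over the 6 arrays. Idh2 measured 6.81, 7.02 and 6.75 in wild-type and 7.02, 6.90 and 6.78 in Tet2-/- cells, a spread of 0.27. Both sets of values overlapped between the genotypes. The differences were -0.01 (95% confidence interval -0.32 to 0.30) for Idh1 and 0.04 (-0.27 to 0.35) for Idh2. The sign of the Idh1 value turned after a further quantile normalization (0.05), and that of Idh2 without wild-type replicate 6 or Tet2-/- replicate 4. Folds outside 0.800 to 1.23 for Idh1 and 0.827 to 1.28 for Idh2 lay beyond these intervals.

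Relative levels of family members were compared as differences within an array, which cancel an array-wide shift. Over 4 pairs, an exact two-sided permutation test of 3 against 3 arrays cannot give a p below 0.1. Dnmt1 minus Uhrf1 was the only pair of the 4 to separate the groups. It stood at 2.65, 2.22 and 2.25 in wild-type and at 1.93, 2.13 and 1.97 in Tet2-/- replicates 4, 5 and 6. Its balance was thus 0.36 lower in Tet2-/- (exact permutation p = 0.1, 0.4 adjusted over the 4 pairs), and 0.02 higher by the characteristic. Tet2 minus Tet3 stood at -1.43, -2.01 and -2.01 in wild-type and at -1.52, -1.62 and -1.64 in Tet2-/- arrays. These overlapped, with a difference of 0.22 (exact permutation p = 0.4, adjusted 0.533) that was -0.35 by the characteristic. Dnmt3a minus Dnmt3b differed by -0.38 (exact permutation p = 0.3, adjusted 0.533) and Idh1 minus Idh2 by -0.05 (exact permutation p = 0.8, adjusted 0.8). By the characteristic these were 0.067 and 0.053.

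**Figure D3:**
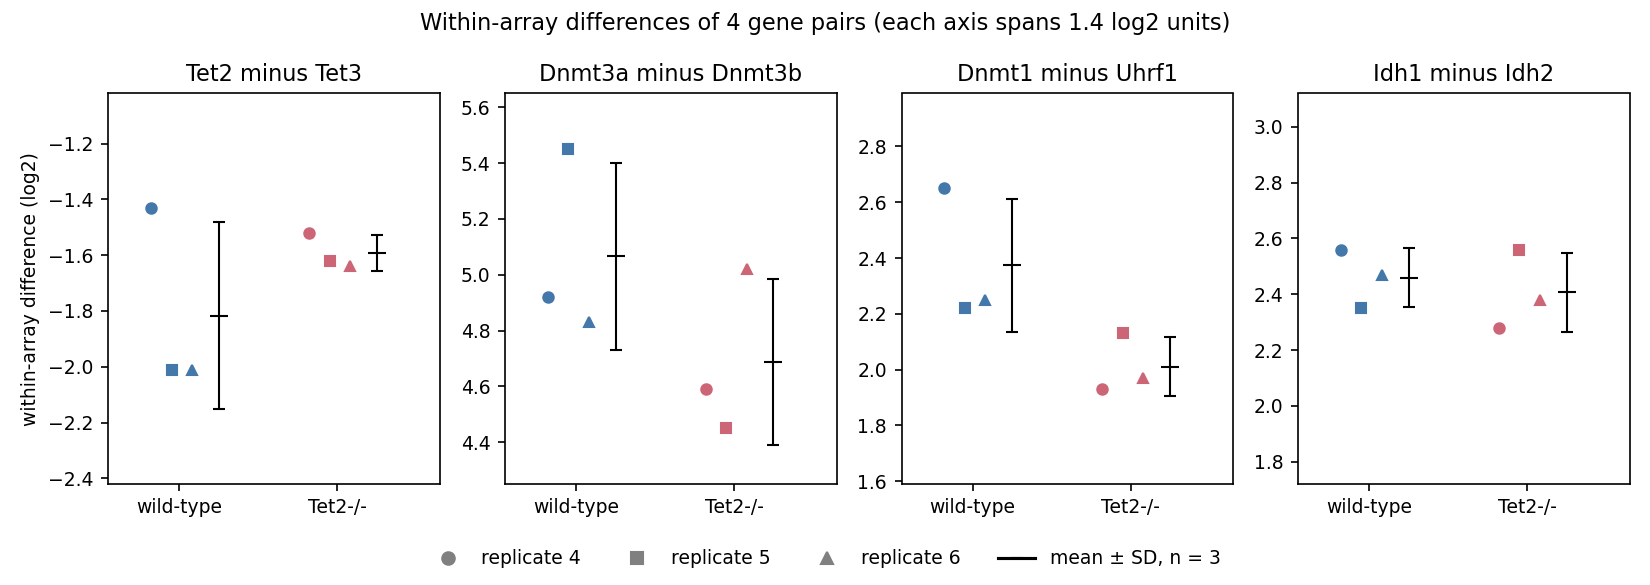
Within-array difference of log2 levels (vertical axis) for 4 pairs of genes in the 3 wild-type (blue) and 3 Tet2-/- (red) arrays. Shapes give the replicate number and black bars mean ± SD with n = 3. Dnmt1 minus Uhrf1 lies lower in all Tet2-/- arrays, and the other 3 pairs overlap.

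The genes that followed Tet2 and Dnmt3a most closely from array to array were found by the root mean square distance between profiles centred on their 6-array mean, as a description. For Tet2 they were Kif16b, an endosomal kinesin (distance 0.0297 log2 units over 6 arrays), Prkcb, a protein kinase C isoform (0.0364), and Pld2, a phospholipase D (0.0564). The median named gene lay 0.301 from Tet2. Prkcb, for instance, measured 7.55, 6.88 and 6.97 in wild-type and 6.92, 7.20 and 6.76 in Tet2-/- arrays, again highest in wild-type replicate 4. For Tet3 they were Gdf9 (0.0221), Nol4l (0.0523) and Rab11fip1 (0.0688), and for Dnmt3a they were Clec4a4 (0.0471), Amz1 (0.0475) and Omp (0.0576). With 23185 named genes and 6 arrays, close neighbours are to be found for any profile.

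Partners of the writers and erasers were then counted in lists. In every list 0 genes passed over all probe sets (limma adjusted p of 0.998 at the smallest), so each is described by its values alone. From 11 lists of partners, pathways, germline and cell cycle genes, 33 genes were named. Of these, 23 changed sign when the arrays were grouped by the characteristic, an alternative added after seeing the data. The 33 were picked for a small p by title and the groupings are opposed in part, so many turns were built in. Across all probe sets, the 3 arrays of each genotype did not overlap for 4.07% lower and 3.33% higher, the background for each gene below that separated the groups. Of 17 measured DNMT partners and maintenance factors, 11 were higher, 5 lower and 1 equal (median difference 0.08, against 0 over all probe sets). The largest difference was that of Dppa3, a germ cell and oocyte factor that keeps Uhrf1 from DNA. It lay at 4.49, 4.35 and 4.96 in wild-type and at 5.26, 5.20 and 5.66 in Tet2-/- replicates 4, 5 and 6, with no overlap. Its difference was 0.77, of standard error 0.197, and did not pass (limma adjusted p = 0.998). By the characteristic it was -0.30. Cdca7, which recruits the remodeller Hells, differed by 0.40 and the replication clamp Pcna by -0.23, or by -0.07 and 0.11 by the characteristic. Of 16 partners and regulators of TET enzymes, 8 were higher and 8 lower, with a median of 0.003. None separated the groups, against 7.41% of all probe sets. Its 3 smallest p-values belonged to Ebf1 (0.22), Cxxc4 (0.24) and the miR-22 host gene Mir22hg (-0.30). Their differences by the characteristic were 0.10, -0.16 and 0.21.

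Repair genes that act after TET oxidation were also balanced, 9 of 17 being higher and 8 lower (median 0.003). Neil3, a glycosylase of dividing cells, lay at 2.09, 2.23 and 1.91 in wild-type and at 2.75, 2.90 and 2.29 in Tet2-/- arrays, all higher (difference 0.57, or -0.03 by the characteristic). Gadd45g and Gadd45b, stress proteins proposed as adaptors of demethylation, lay lower in all Tet2-/- arrays and differed by -0.40 and -0.35, or by 0.09 and 0.03 by the characteristic. Gadd45b measured 8.37, 8.69 and 8.44 in wild-type and 8.22, 7.88 and 8.34 in Tet2-/- replicates 4, 5 and 6. As for Dnmt3a, the lowest array was Tet2-/- replicate 5 and the highest wild-type replicate 5. Of 11 genes listed as CpG readers, not all of them for methylated CpGs, 5 were higher and 6 lower (median -0.02). Of these 11, 0 separated the groups, against 7.41% of all probe sets. Mbd4, a reader with glycosylase activity, differed by 0.25, the CXXC demethylase Kdm2a by 0.27 and Zbtb33 by 0.14. Their differences by the characteristic were -0.05, 0.013 and -0.047.

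Supply of the enzymes' substrates gave a few larger single values. Of 26 genes of 2-oxoglutarate supply and its competitors, 11 were higher and 15 lower (median -0.03). Acod1 makes itaconate, a metabolite that resembles 2-oxoglutarate. It lay at 3.63, 2.88 and 3.13 in wild-type and at 4.22, 5.06 and 3.97 in Tet2-/- replicates 4, 5 and 6. By title it was higher in all Tet2-/- arrays, by 1.20 on average (limma adjusted p = 0.998). By the characteristic the difference was -0.25. Gpt2, the mitochondrial transaminase that interconverts glutamate and 2-oxoglutarate, ran the other way, at 4.44, 4.21 and 4.07 against 3.60, 3.63 and 3.86, a difference of -0.54 by title and 0.003 by the characteristic. Psat1, a serine synthesis enzyme that releases 2-oxoglutarate, differed by -0.30. Among 20 genes of the S-adenosylmethionine and folate cycle, 9 were higher and 11 lower (median -0.04). The methyltransferase Bhmt, adenosine kinase Adk and Ahcyl1, a relative of the S-adenosylhomocysteine hydrolase, differed by -0.40, -0.24 and -0.20. By the characteristic these were 0.53, 0.14 and 0.15.

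For cofactors, 6 of 12 vitamin C and iron genes were higher and 6 lower (median 0.01), and 2 were lower in all Tet2-/- arrays (4.07% of all probe sets). Tfrc, the transferrin receptor that brings iron into cells, lay at 6.61, 6.62 and 6.86 in wild-type and at 5.83, 5.91 and 6.48 in Tet2-/- arrays, a difference of -0.62 by title and 0.16 by the characteristic. Slc2a1, a glucose transporter that also carries oxidised vitamin C, differed by -0.42 (0.02 by the characteristic), and the iron transporter Slc11a2 by -0.22. Of 30 other dioxygenases, which act on nucleic acids, histones or other proteins, 17 were higher, 12 lower and 1 equal (median 0.05). The histone demethylase Phf8 lay at 4.18, 3.92 and 3.97 in wild-type and at 4.51, 4.46 and 4.39 in Tet2-/- arrays, higher in all 3 (difference 0.43 by title and -0.24 by the characteristic). Alkbh1 and Riox2 differed by -0.41 and -0.24, or by 0.04 and 0.08 by the characteristic. Of 4 measured cytosine deaminases, 3 were higher and 1 lower, with Apobec3 at 0.34, Apobec2 at -0.30 and Apobec4 at 0.18.

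Germline genes that promoter methylation keeps silent in somatic cells were also counted. Of 20 measured, 10 lay on average under percentile 25 of the arrays. In the comparison 8 were higher and 12 lower (median -0.05). Sycp1, a protein of the synaptonemal complex, differed by -0.37, Hormad1 by -0.43 and the piRNA pathway gene Tdrd1 by 0.30. By the characteristic they were 0.06, 0.36 and -0.07. Tdrd1 rested at 2.10 to 2.17 in Tet2-/- and 1.76 to 1.91 in wild-type arrays.

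Marker genes of other cells and of cycling were followed in the same arrays. None of them passed the test, and their part in the values of the 10 genes was not tested. In bulk RNA, fewer cells of a type and less RNA per cell cannot be told apart. Of 22 cell cycle genes 19 were higher (median 0.23, or 0.12 with 17 higher by the characteristic). Their mean stood at 0.24 and 0.44 in Tet2-/- replicates 4 and 5 relative to the 6-array mean, but at -0.27 in replicate 6 and -0.13, -0.21 and -0.08 in wild-type replicates 4, 5 and 6. Relative to their own 6-array means, Uhrf1 stood at 0.23, 0.01 and 0.09 and Dnmt1 at -0.03, -0.05 and -0.13 in Tet2-/- replicates 4, 5 and 6. In wild-type replicates 4, 5 and 6, Uhrf1 stood at -0.19, -0.10 and -0.03 and Dnmt1 at 0.27, -0.07 and 0.03. Kif11 and Ccna2, a mitotic kinesin and a cyclin, differed by 0.77 and 0.72 and the spindle protein Nusap1 by 0.53.

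B-cell genes were higher for 9 of 9 (median 0.46, or 0.10 with 6 higher by the characteristic). Cd79b, a signalling chain of the antigen receptor, was higher in all Tet2-/- arrays, by 1.55 on average. Its partner chain Cd79a differed by 1.59 and the surface antigen Ms4a1 by 1.07. Levels of the 9 B-cell genes summed on the linear scale to 59.8 to 109 in wild-type and to 71.0 to 342 in Tet2-/- arrays. Most of the highest sum of each genotype came from Ighm, at 6.09 in wild-type replicate 6 and 7.59 in Tet2-/- replicate 5. The Ighm values overlapped between the genotypes and differed by 0.95. Large peritoneal macrophage genes were also higher for 9 of 9 by title (median 0.56), but for 3 of 9 by the characteristic (median -0.06). Their sums were 1352 to 2347 in wild-type and 1464 to 3785 in Tet2-/- arrays. Most of each sum came from the probe set of fibronectin, Fn1, which lay at 10.06 to 10.97 and 10.15 to 11.57 and differed by 0.34. Relative to the 6-array mean, the B-cell list stood at 0.35, 0.92 and -0.19 and the large peritoneal macrophage list at 0.68, 0.91 and -0.45 in Tet2-/- replicates 4, 5 and 6. Dnmt3a stood at -0.14, -0.45 and -0.05 and Tet3 at -0.29, 0.07 and -0.30 in the same arrays. T-cell genes summed to 33.3 to 37.8 in wild-type and 36.0 to 41.8 in Tet2-/- arrays. Granulocyte and mast cell genes summed to 116 to 130 and 98.2 to 194. Most of each of these sums came from S100a8, which lay at 6.22 to 6.43 and 5.79 to 7.19. Mesothelial and stromal genes summed to 225 to 379 and 272 to 316. The 7 measured macrophage markers summed to 4088 to 5147 in wild-type and 3248 to 5618 in Tet2-/- arrays. Their sum was lowest in Tet2-/- replicate 6 and highest in Tet2-/- replicates 4 and 5 (5483 and 5618). RMA has no true 0, so no marker can be called absent.

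**Figure D4:**
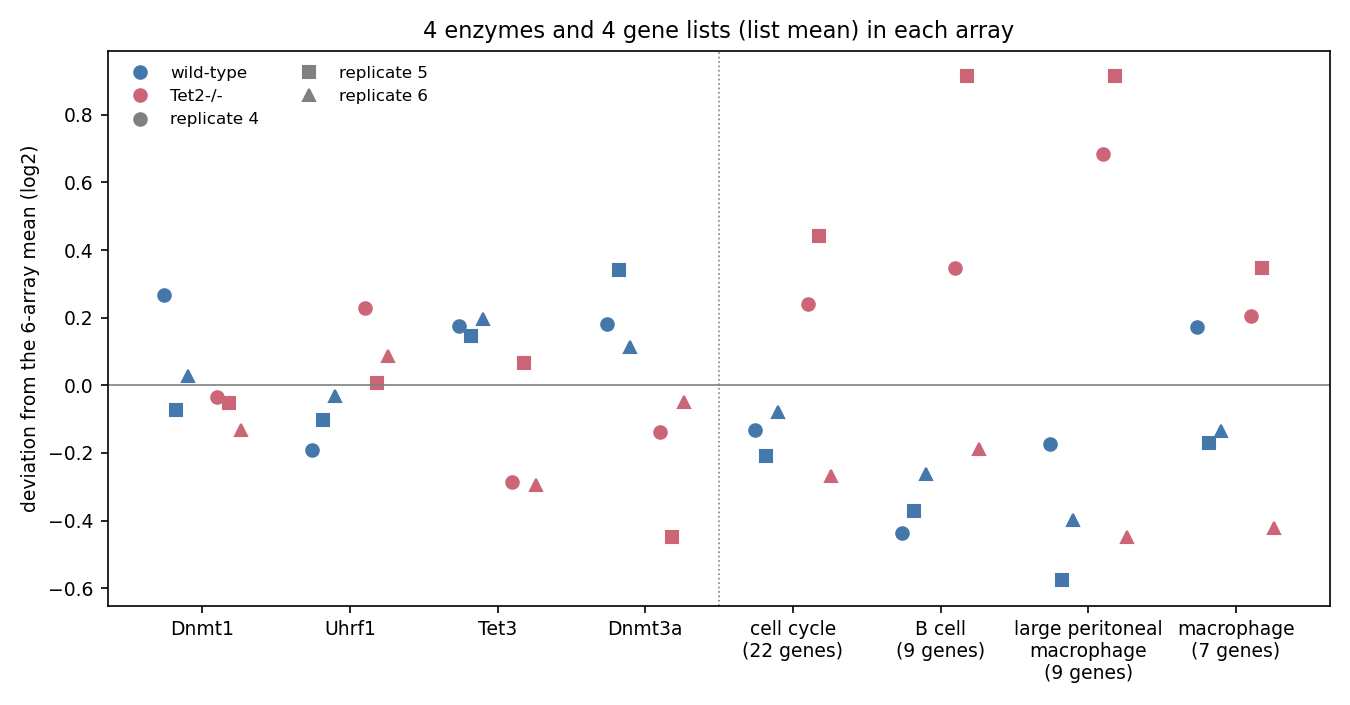
Deviation from the 6-array mean (vertical axis, log2) of 4 enzymes (left) and of the mean of 4 gene lists (right) in wild-type (blue) and Tet2-/- (red) arrays, with shapes for replicate numbers. Tet2-/- replicates 4 and 5 are the 2 highest arrays on the 4 lists drawn (cell cycle, B cell, large peritoneal macrophage and macrophage). The marker lists not drawn differ. Tet2-/- replicate 6 is highest on the T-cell list and on the granulocyte and mast cell list. Wild-type replicate 6 is highest on the mesothelial and stromal list. The part of these lists in the enzymes' values was not tested.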

How the data were processed

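Whole-transcript Affymetrix arrays measured total RNA from 6 samples, 3 per genotype by title. The deposited values are on the log2 scale, and the submitters' processing notes name RMA and affy 1.36.1 as what the authors used. The log2 scale was read from the values and that method, and joint normalization of the 6 arrays, the probe definition and the genome build were not stated in the sources used here. All 23185 named probe sets matched the RefSeq gene table, and 2021 stayed unnamed.

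Values were used as deposited. Genotypes were compared by two-sided tests in limma 3.58.1 under R 4.3.3 (functions lmFit and eBayes, no covariate), adjusted by Benjamini-Hochberg over all 25206 probe sets at 0.05. Pairs of genes used exact permutation tests in scipy 1.17.1. The test was tested on simulated data. Those data had known labels and independent errors, so they do not bear on conflicting labels or on an array that stands apart. The number of arrays limits the precision. The members, lists and tests were chosen with earlier results of these data known. Beside the 10 members, the 3 genes with the smallest p in each of 11 lists (described by counts, with no set test) and the 3 closest profiles to Tet2, Tet3 and Dnmt3a were named. For the 6 marker lists, genes were named after their values were seen. Nothing in the labels says what a replicate number shares, so no block was used in the main fit. Alternatives were the genotype characteristic, the replicate block, variance and array weighting, normalization, a filter on dim probe sets, the threshold and leaving out each array.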

Additional observations from a re-analysis of the deposited data

How the results depend on the processing

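Of 128 alternative values for the 10 genes, 108 kept their direction and 20 turned, and no gene passed the threshold under any of them. The array scanner files were not used here, so no other background correction was tried, and signal over background per probe set is unknown. Grouping by the genotype characteristic gave 0.27 for Tet3, 0.0033 for Dnmt3a, -0.083 for Uhrf1 and 0.073 for Idh1, and for the within-array pairs -0.35 (Tet2 minus Tet3), 0.067 (Dnmt3a minus Dnmt3b), 0.017 (Dnmt1 minus Uhrf1) and 0.053 (Idh1 minus Idh2), since it exchanges 4 of the 6 labels. Array weights gave -0.031 for Tet1, 0.018 for Dnmt3b, -0.061 for Tdg and 0.040 for Idh1, with Tet2-/- replicate 6 at a weight of 0.297, and a further quantile normalization gave 0.046 for Idh1. Array weights put 2 probe sets past the threshold in place of 0, neither of them among the 10 genes. The exchanged labels oppose the groupings in part, so turns by the characteristic are partly built in. The cause of the other turns was not tested.

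Leaving out each array in turn moved that count between 0 and 19, reaching 19 when Tet2-/- replicate 6 was left out and 1 when wild-type replicate 4 was. The differences ran from -0.015 to 0.30 for Tet1, -0.23 to 0.075 for Tet2, -0.46 to -0.28 for Tet3, -0.22 to -0.05 for Dnmt1, -0.505 to -0.305 for Dnmt3a and -0.17 to 0.042 for Dnmt3b. They ran from 0.16 to 0.27 for Uhrf1, -0.08 to 0.28 for Tdg, -0.09 to 0.06 for Idh1 and -0.02 to 0.12 for Idh2. For the pairs they ran from 0.13 to 0.42 (Tet2 minus Tet3), -0.55 to -0.19 (Dnmt3a minus Dnmt3b), -0.44 to -0.225 (Dnmt1 minus Uhrf1) and -0.13 to 0.01 (Idh1 minus Idh2). The unadjusted p of Dnmt3a was above 0.05 without wild-type replicate 5 or Tet2-/- replicate 5, and that of Tet3 when any array but Tet2-/- replicate 5 was left out, with trended robust variances (0.0596) and among the brighter probe sets (0.0536). Tet1 and Tdg have no value among the brighter probe sets, being below the median.

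Replicate numbers did not pair the samples: deviations from the group means correlated by 0.15, -0.215 and 0.112 for numbers 4, 5 and 6. With the replicate number as a block, 0 probe sets passed, no call changed, and Dnmt3a had an unadjusted p under 0.05 while Tet3 had not. The 2 counts of genes without Tet2-/- replicate 6 were chosen after seeing the data.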
